A study of Mus musculus with 10 samples.

Results

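Fgf5, Pim2, Otx2, Pou3f1, Zic2, Zic5, Lin28b and Sfrp2 are commonly listed as genes of the primed epiblast, the pluripotent tissue of the mouse embryo after implantation. They were picked by name, with earlier results of these data known, and are 8 of the 24520 genes in the deposited expression table. Counts and medians of the 8 set beside those of all genes are therefore a description. Each gene was represented by the transcript row with the highest mean level over the 10 libraries. A gene entered the tests when it reached at least 1 RPKM (reads per kilobase of transcript per megaread mapped) in at least 2 libraries, which held for 11956 genes and for all 8 of these. Fgf5 met this through its NPC libraries alone, since it stayed below 1 RPKM in every ESC library.

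The libraries hold RNA of V6.5 cells, a line of mouse embryonic stem cells (ESCs) cultured with leukemia inhibitory factor on irradiated embryonic fibroblast feeders, and of derivatives of the same line that the labels call neural progenitor cells (NPCs). Per the labels' protocols, the derivatives passed through 4 days as embryoid bodies, were plated as a monolayer in ITSF medium, received siRNA on day 5 and gave RNA on day 8. The 5 groups were ESCs with a control siRNA against luciferase, ESCs with Cbx3 siRNA, NPCs with the luciferase control, NPCs with Cbx3 siRNA and NPCs with Med26 siRNA, with 2 libraries each, named biological replicates in the labels. No agent other than the siRNA set apart the groups of 1 cell type. Cbx3 encodes the heterochromatin protein HP1 gamma and Med26 a subunit of the Mediator complex. All libraries come from 1 cell line, and p-values with 2 libraries a group measure the spread between these samples only.

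In the naive state, which leukemia inhibitory factor maintains through Stat3, pluripotent cells express factors such as Esrrb and Klf4. On the way to the primed state, FGF and ERK signalling drives the loss of the naive factors, Pou5f1 is kept, and Otx2 helps Pou5f1 to engage new enhancers, among them those near Fgf5. Several of the genes are not exclusive to the epiblast: Otx2, Pou3f1, Zic2 and Zic5 are also expressed in the early neural plate, so they are read in cells that were directed towards neural fate. In bulk RNA, fewer cells of a type and less RNA per cell cannot be told apart.

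Promoter windows, from 250 bases before to 50 bases after a RefSeq start site, were matched by symbol for 6 of the 8 genes (9 windows in GRCm38.p6, all but Zic2 and Pou3f1). Because 4 of the 8 genes encode DNA-binding factors, the windows were searched on both strands for 3 short motifs: the octamer ATGCAAAT read by POU factors, the OTX core TAATCC and the ZIC core CAGCAGG, chosen after the windows were seen. The 3 windows below are shown because they hold at least 1 of these motifs, which are in capitals. The sequences are from RefSeq, 5′ to 3′ on the strand of the gene.
Pim2, chrX:7878056-7878355, + strand: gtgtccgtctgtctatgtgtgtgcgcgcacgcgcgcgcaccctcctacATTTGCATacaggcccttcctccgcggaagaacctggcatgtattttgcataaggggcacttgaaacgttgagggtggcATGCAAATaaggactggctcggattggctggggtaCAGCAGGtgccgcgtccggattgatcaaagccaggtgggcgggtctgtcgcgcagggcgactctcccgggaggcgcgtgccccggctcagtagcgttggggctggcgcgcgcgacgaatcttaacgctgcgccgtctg
Sfrp2, chr3:83766071-83766370, + strand: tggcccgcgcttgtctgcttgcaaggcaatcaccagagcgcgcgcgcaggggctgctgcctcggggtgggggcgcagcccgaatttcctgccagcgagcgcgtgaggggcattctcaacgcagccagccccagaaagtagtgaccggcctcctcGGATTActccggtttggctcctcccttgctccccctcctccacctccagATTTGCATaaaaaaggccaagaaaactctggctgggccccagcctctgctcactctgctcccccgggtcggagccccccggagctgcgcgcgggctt
Otx2, 1 of its 4 start sites, chr14:48665060-48665359, - strand: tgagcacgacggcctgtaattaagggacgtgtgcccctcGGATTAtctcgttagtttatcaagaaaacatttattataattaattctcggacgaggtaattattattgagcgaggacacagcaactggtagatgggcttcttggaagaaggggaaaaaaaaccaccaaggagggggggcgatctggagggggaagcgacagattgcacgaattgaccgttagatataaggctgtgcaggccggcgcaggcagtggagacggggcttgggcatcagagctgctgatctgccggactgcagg
Pim2 has the octamer at 2 places, starting 202 and 123 bases before its start site, and the ZIC core 88 bases before it. Sfrp2 has the octamer 47 bases and the OTX core 96 bases before its start, and this Otx2 window has the OTX core 211 bases before it. Over all 32817 windows of this length, 1.74% hold the octamer, 7.06% the OTX core and 10.5% the ZIC core, and the 3 motifs share no bases in the windows shown. These are letter matches, with no measurement of binding.

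Library depth, estimated from the steps between low values, ran from 23.3 to 63.8 megareads. Both ESC replicate 2 libraries were the shallowest, at 24 (control) and 23.3 (Cbx3 siRNA) megareads, against 51.3 and 33.6 in replicate 1. The targeted genes were lower in the knockdowns: Cbx3 was at 0.425 and 0.248 RPKM after Cbx3 siRNA against 9.37 and 9.65 RPKM in NPC controls, and at 1.01 and 1.96 RPKM against 13.99 and 56.4 RPKM in ESCs. Med26 was at 3.04 and 3.07 RPKM after Med26 siRNA against 7.56 and 6.78 RPKM in NPC controls. The ESC libraries stand apart by replicate. The median absolute gap between replicates over all tested genes was 0.27 in ESC controls and 0.26 after Cbx3 siRNA in ESCs on the log2(RPKM + 1) scale, against 0.09 to 0.10 in the 3 NPC groups.

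The 8 genes differed between the ESC replicates in the same direction, by unequal amounts. Each was higher in replicate 2 than in replicate 1, in ESC controls and after Cbx3 siRNA in ESCs. Over all tested genes, 37.1% were higher in replicate 2 in both groups. Some gaps were below the median absolute gap of all tested genes given above. These were Lin28b in ESC controls (0.12), and Sfrp2 (0.11), Fgf5 (0.16) and Zic5 (0.19) after Cbx3 siRNA. Pim2, a serine/threonine kinase of cytokine signalling, had the widest gap, with 6.85 RPKM in ESC control replicate 1 and 31.8 RPKM in replicate 2. Its Cbx3 siRNA libraries in ESCs had 7.10 and 23.8 RPKM in replicates 1 and 2. Lin28b, an RNA-binding protein that blocks maturation of let-7 microRNAs, had the narrowest gap in ESC controls, with 13.1 and 14.3 RPKM. The median gap of the 8 genes (replicate 2 minus replicate 1) was 0.73 in ESC controls and 0.50 after Cbx3 siRNA, beside -0.07 and 0.00 over all tested genes.

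The other listed markers moved with replicate too. Of the 17 naive pluripotency genes, 16 were lower in replicate 2 in each ESC group, with median gaps of -0.999 and -1.03. Esrrb, an orphan nuclear receptor of the naive network, had 53.4 and 13.7 RPKM in ESC control replicates 1 and 2 and 58.0 and 16.3 RPKM after Cbx3 siRNA. Of 20 other formative and primed epiblast genes, 13 and 14 were higher in replicate 2, with medians of 0.21 and 0.37. Fibroblast feeder markers were higher in replicate 2 for 10 of 10 and 8 of 10 tested genes, and the summed level of the 13 listed was 53.9 and 86.6 RPKM in ESC controls and 67.2 and 78.6 RPKM after Cbx3 siRNA. All 4 tested markers of simple epithelium and trophoblast were higher in replicate 2 in both groups, and their list summed to 18.4 and 108 RPKM in ESC controls and to 22.4 and 245 RPKM after Cbx3 siRNA. In the 6 NPC libraries the feeder list summed to 11.8 to 17.98 RPKM. The part of these cell types, of depth and of the replicate in the levels of the 8 genes was not tested.

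**Figure D1:**
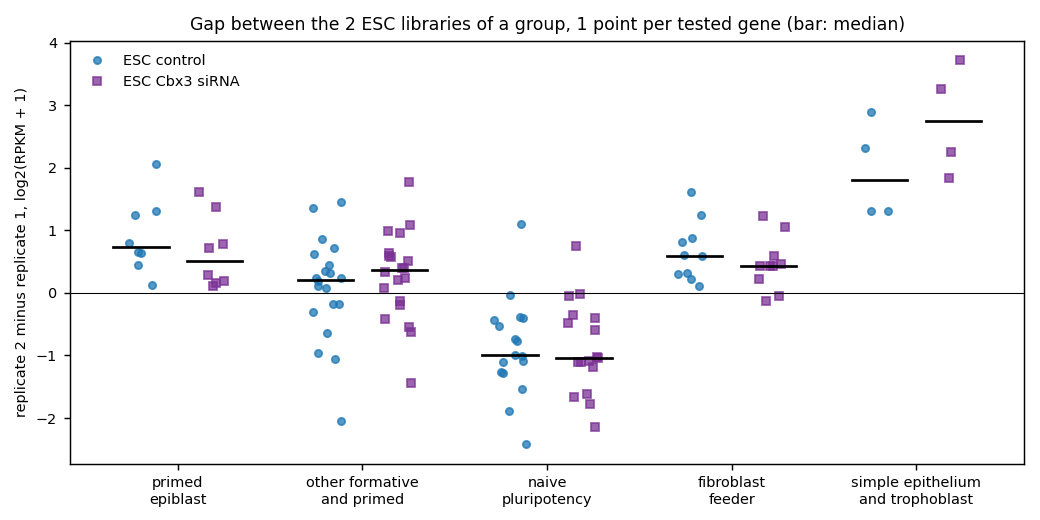
Difference between replicates 2 and 1 within each ESC group, on the log2(RPKM + 1) scale (vertical axis), for every tested gene of 5 lists (horizontal axis), with circles for ESC controls, squares for Cbx3 siRNA and bars for medians. All 8 primed epiblast genes lie above 0 in both groups, with medians of 0.73 and 0.50, while 16 of 17 naive genes lie below 0 in each.

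The comparison of NPC controls with ESC controls asks how the 8 genes differ between ESCs and the cells labelled NPCs. Of the 8, 7 were higher in both NPC controls than in both ESC controls, against 34.5% of all tested genes, and Lin28b alone overlapped. Past the threshold (limma, Benjamini-Hochberg adjusted p under 0.05), Fgf5 and Sfrp2 rose and none of the 8 fell, beside 10.1% of all tested genes that rose and 5.94% that fell. The median difference of the 8 genes was 1.09 on the log2(RPKM + 1) scale, beside 0.03 for all tested genes. These values are a description, since the 8 genes were chosen with earlier results of these data known. Fgf5 also passed the filter through NPC libraries alone.

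Fgf5, a secreted FGF ligand and the classical marker of the primed epiblast, had 0.156 and 0.797 RPKM in ESC control replicates 1 and 2 and 5.12 and 4.62 RPKM in the NPC controls. The means were 0.477 ± 0.454 and 4.87 ± 0.348 RPKM (SD, n = 2), a ratio of 10.2. The fitted difference was 2.02 ± 0.20 (SE; adjusted p = 0.00219), on a scale that understates the change of genes with low levels. By the estimated depths, the ESC control values rest on about 20 and 48 reads, and the NPC control values on about 688 and 636. With any 1 library left out the difference lay between 1.71 and 2.34, and with the 4 control libraries alone the adjusted p was 0.0571. Fgf5 was chosen with earlier results known and passed the filter through its NPC libraries alone. These values are therefore a description.

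Sfrp2, a secreted Frizzled-related protein that binds Wnt ligands, had 5.51 and 7.86 RPKM in ESC controls and 15.2 and 13.5 RPKM in NPC controls. The difference was 1.01 ± 0.16 (SE; adjusted p = 0.00915). It missed the threshold without NPC control replicate 1 (adjusted p = 0.0823) or replicate 2 (adjusted p = 0.0579), and with the 4 control libraries alone (adjusted p = 0.0812).

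Pim2 had the highest level of the 8 in NPC controls, at 81.5 and 73.0 RPKM, against 6.85 and 31.8 RPKM in ESC controls. Its difference of 2.28 ± 0.68 on the log2(RPKM + 1) scale missed the threshold (adjusted p = 0.0588), beside the wide ESC gap. On that scale it was the largest of the 8, whereas the ratio of mean RPKM was 4.00 for Pim2 and 10.2 for Fgf5. The ranges of the ESC and NPC controls were far apart all the same.

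The 4 transcription factor genes shared this pattern of separate ranges and adjusted p-values above 0.05. Otx2, a homeobox gene of the primed epiblast and the anterior head, had 5.02 and 9.47 RPKM in ESC controls and 15.1 and 12.8 RPKM in NPC controls (difference 0.91, adjusted p = 0.0818). Pou3f1, a POU factor also named Oct6 that promotes neural fate in epiblast cells, had 4.68 and 13.0 RPKM against 20.3 and 17.8 RPKM (1.16, adjusted p = 0.151). Zic2, a zinc finger factor of epiblast and neural plate, had 4.94 and 13.1 RPKM against 25.5 and 19.3 RPKM (1.34, adjusted p = 0.0579). In each of the 3, ESC control replicate 2 lay closer to the NPC controls than replicate 1 did. Zic5, the neighbour and paralog of Zic2, had 1.99 and 3.72 RPKM against 4.88 and 4.09 RPKM (0.54, adjusted p = 0.124), and its ESC replicate 2 came close to the lower NPC control. Lin28b had 13.1 and 14.3 RPKM in ESC controls and 13.8 and 13.9 RPKM in NPC controls (0.01 ± 0.11, adjusted p = 0.951).

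**Figure D2:**
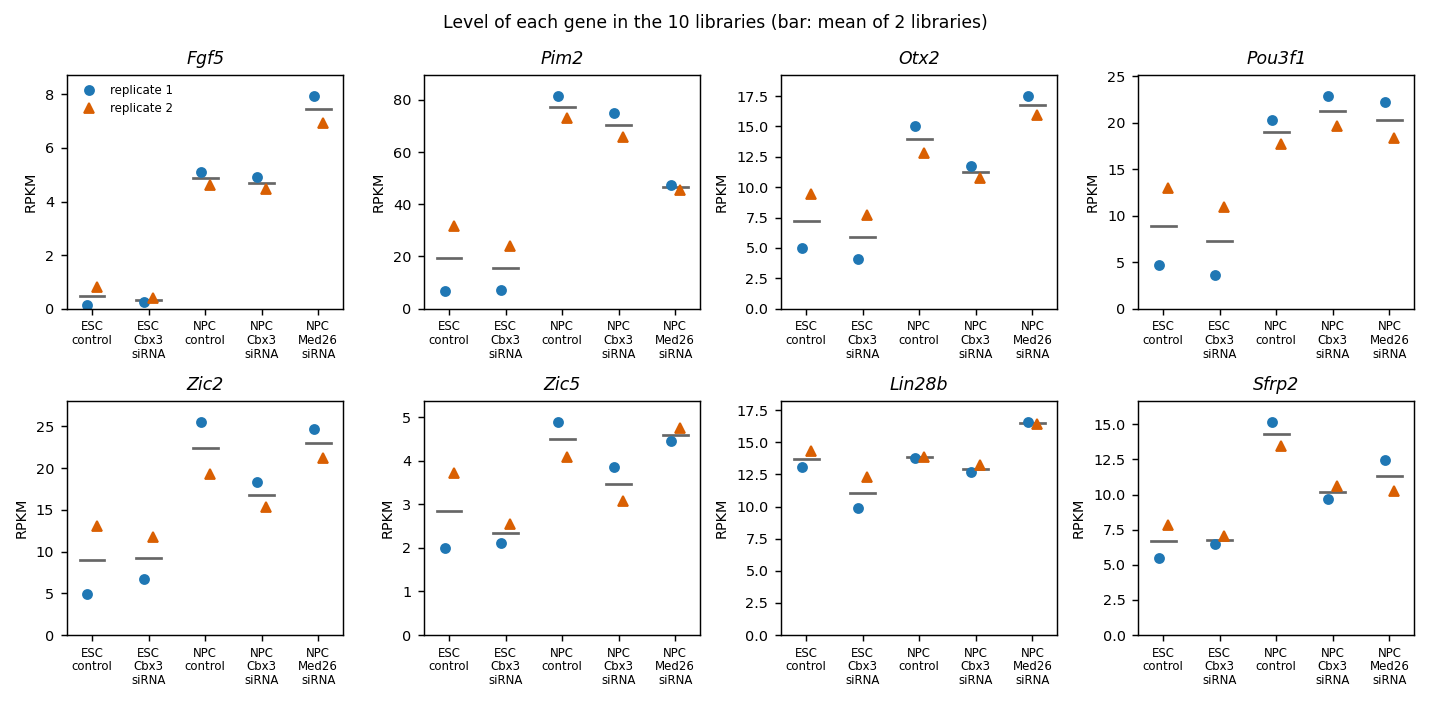
RPKM (vertical axes, linear, from 0) of each of the 8 genes in the 5 groups (horizontal axes), with circles for replicate 1, triangles for replicate 2 and bars for group means. Fgf5 is below 1 RPKM in all ESC libraries and above 4 RPKM in all NPC libraries, and Pim2 drops to 47.5 and 45.6 RPKM after Med26 siRNA in NPCs.

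For Pim2, Otx2, Pou3f1, Zic2 and Zic5 the call depended on which ESC libraries were in the fit. Without ESC control replicate 1 the difference was 1.25 for Pim2 and 0.72 for Zic2, and without replicate 2 it was 3.32 and 1.97. The ESC control group then held 1 library. Leaving out either 1 of the ESC Cbx3 siRNA libraries left the differences as they were (2.28 for Pim2, 0.91 for Otx2 and 1.34 for Zic2). Those libraries enter the error of this comparison and not its difference. The calls that Otx2, Pim2 and Zic2 gained there therefore came from the error alone. In 2 settings added after the data were seen, both ESC libraries of replicate 1 or both of replicate 2 were left out. Each ESC group then kept 1 library, and the error came from the NPC libraries alone. Calls from these settings are therefore not given. Against ESC replicate 2 alone the differences were smaller: 1.25 for Pim2, 0.51 for Otx2, 0.51 for Pou3f1 and 0.72 for Zic2. Lin28b passed in none of these, and Sfrp2 lost its call when an NPC control was left out, as given above.

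The other epiblast and pluripotency genes gave a mixed background for the 8. Of 20 other formative and primed genes, 3 rose and 1 fell, with a median of 0.16. Those that rose were Wnt8a (1.52), a Wnt ligand of the posterior epiblast that passed the filter through NPC libraries alone (at most 0.630 RPKM in any ESC library), the transcription factor gene Sall2 (1.51) and Sox3 (1.40), a SoxB1 factor of epiblast and neural plate. Of 17 naive genes, 11 fell and none rose, with a median of -2.09. Of 8 general pluripotency genes, 3 fell and none rose. Pou5f1 had 484 and 497 RPKM in NPC controls and 536 and 308 RPKM in ESC controls (adjusted p = 0.553).

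Markers of the anterior neural plate and forebrain were near the floor in all libraries. The label of neural progenitor was set beside these and other marker lists. None of the 8 listed forebrain genes passed the filter, and their summed level was at most 1.37 RPKM in any library. Six3, of the most anterior neural plate, reached at most 0.0248 RPKM. Of the 10 listed neural progenitor markers 6 were tested, of which 3 rose and 1 fell. Those that rose were Nes (1.68, adjusted p = 0.0448), Sox3 (1.40, adjusted p = 0.00226) and Sox1 (0.58, adjusted p = 0.0103). Sox2 fell (-1.68, adjusted p = 0.0140), while Pax6 (0.95, adjusted p = 0.0534) and Dll1 (0.42, adjusted p = 0.136) had no call. Of the 10 listed midbrain, hindbrain and spinal cord genes 4 were tested, of which 1 rose and 1 fell. These were Irx3 (1.08, adjusted p = 0.0116) and Gbx2 (-2.47, adjusted p = 0.0122). Of the 8 listed primitive streak and mesoderm genes 2 were tested, and both rose: T, also named Brachyury, by 1.44 (adjusted p = 0.00274) and Eomes by 0.47 (adjusted p = 0.0383). The list summed to 2.29 and 2.16 RPKM in ESC controls and 6.14 and 5.96 RPKM in NPC controls, and T was at most 0.285 RPKM in any ESC library, so it too passed the filter through NPC libraries alone. Of 10 tested feeder markers 4 fell and none rose, and their list summed to 53.9 and 86.6 RPKM in ESC controls against 14.2 and 12.3 RPKM in NPC controls. The part of streak and feeder cells in the levels of the 8 genes was not tested. The 8 genes are thus described in cells with high Pou5f1 and with forebrain markers near the floor. Against ESC controls these cells had higher Nes, Sox3 and Sox1 and lower Sox2. The labels' name for these cells is kept.

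Paralogs showed which member of each family these cells used. Among FGF ligands, Fgf8, of the primitive streak and midbrain-hindbrain boundary, rose from at most 0.200 RPKM in ESC controls to 5.27 and 4.00 RPKM in NPC controls (2.30, adjusted p = 0.00124). Like Fgf5, it passed the filter through NPC libraries alone, being at most 0.207 RPKM in any ESC library. Fgf15, an ileal hormone that the neural tube also expresses, rose from 3.95 and 4.01 to 10.8 and 11.1 RPKM (1.26, adjusted p = 0.00124). Fgf4, the autocrine ligand of ESCs, had the highest level of the family at 45.6 and 48.5 RPKM in NPC controls, with no call (-0.36, adjusted p = 0.357). Otx2 was the only OTX gene above 1 RPKM, as Pou3f1 was among the POU3F genes: their listed paralogs (Otx1, Crx, Pou3f2, Pou3f3 and Pou3f4) passed no filter.

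Within the ZIC family, Zic1 and Zic4 passed no filter. Lin28a, the paralog of Lin28b, had 238 RPKM in both NPC controls, at a level per length far above the 13.8 and 13.9 RPKM of Lin28b, with no call for the change from 110 and 195 RPKM in ESC controls (adjusted p = 0.185). Pim1, Pim3 and Sfrp1 were expressed, with no call (adjusted p = 0.897, 0.808 and 0.942).

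**Figure D3:**
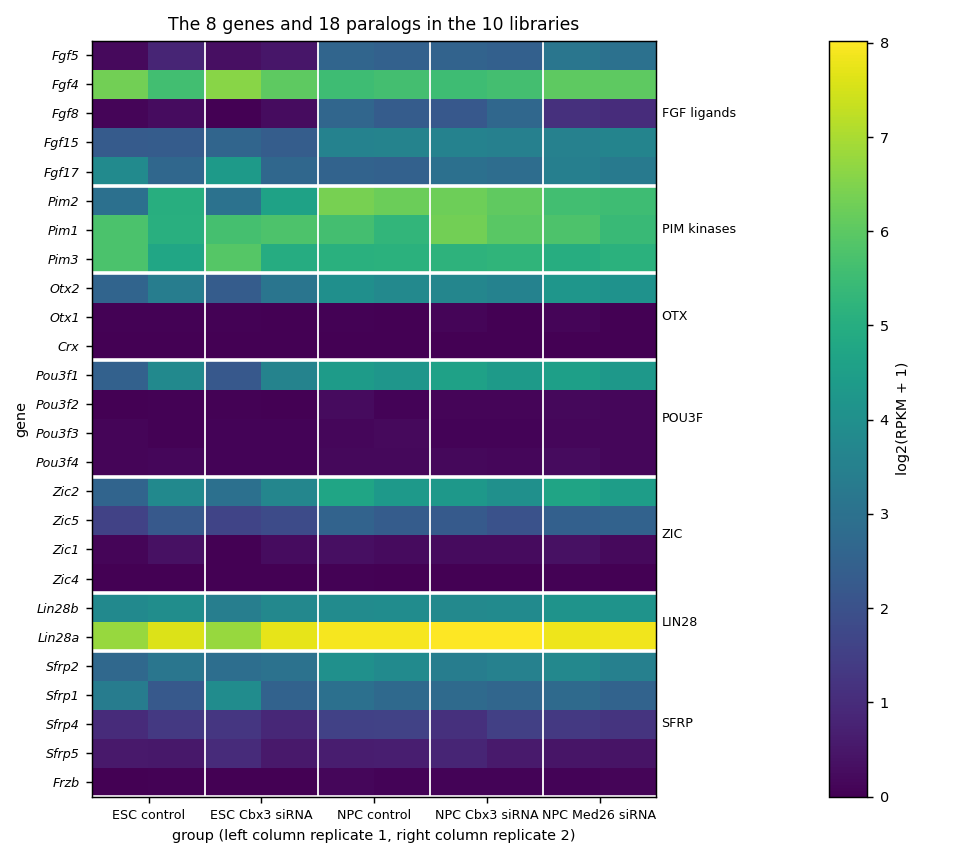
Level on the log2(RPKM + 1) scale (colour) of the 8 genes and 18 paralogs (rows, grouped by family) in the 10 libraries (columns, grouped by cell type and siRNA). In the POU3F and OTX families, Pou3f1 and Otx2 are the rows above the floor, and Lin28a is the row with the highest level, at 238 RPKM in both NPC controls.

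Cbx3 siRNA in ESCs asks whether the 8 genes respond to loss of HP1 gamma before differentiation. None of the 8 and none of the 11956 tested genes passed in limma (0%), with 1 of the 8 (Lin28b) and 645 of all genes at an unadjusted p under 0.05. Cbx3 itself, the silenced gene, did not pass in this fit (-3.59 ± 0.53, adjusted p = 0.291). The absence of calls therefore does not show an absence of response. Lin28b had 9.86 and 12.3 RPKM after Cbx3 siRNA against 13.1 and 14.3 RPKM in ESC controls, ranges that do not overlap (-0.29 ± 0.11, adjusted p = 0.849). How many of all tested genes do not overlap in this comparison was not counted. Pou3f1 had 3.60 and 10.9 RPKM after Cbx3 siRNA (-0.27), Otx2 4.09 and 7.73 RPKM (-0.25) and Zic5 2.11 and 2.55 RPKM (-0.18). The ranges of all 3 overlapped those of the ESC controls, while Otx2, Pou3f1 and Lin28b were lower after Cbx3 siRNA within both replicate numbers. With a term for the replicate number, by which the ESC libraries stand apart, 813 genes passed over the 10 libraries, Pou3f1 and Lin28b among them (adjusted p = 0.0382 and 0.0399). The error of that fit was shared with the NPC libraries, whose replicates lay closer together, so these calls rest in part on NPC spread. In the 4 ESC libraries alone the same term gave 55 genes and none of the 8. Fgf5 had 0.262 and 0.413 RPKM (-0.11), Zic2 6.75 and 11.7 RPKM (0.12) and Sfrp2 6.46 and 7.06 RPKM (0.03). For Pim2 the difference was -0.18, and its sign changed to give 0.85 without ESC control replicate 2.

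In NPCs, Cbx3 siRNA left 1 of the 8 genes past the threshold. Sfrp2 fell, beside 5.33% of all tested genes that fell and 7.80% that rose. Its level was 9.67 and 10.6 RPKM after Cbx3 siRNA against 15.2 and 13.5 RPKM in NPC controls, with means of 10.2 ± 0.686 and 14.3 ± 1.20 RPKM (SD, n = 2). Both knockdown libraries were below both controls, and the difference was -0.46 ± 0.11 (SE; adjusted p = 0.0432). It missed the threshold without NPC control replicate 1 or 2 (adjusted p = 0.178 and 0.0952), without NPC Cbx3 siRNA replicate 1 or 2 (0.168 and 0.0978), with no filter on low values (0.128), with the rows of a gene summed (0.0502) and with all 10 libraries in 1 fit (0.351).

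Another 4 of the 8 genes were lower in both knockdown libraries than in both controls without passing, 5 with Sfrp2, where 26.5% of all tested genes were. Zic2 had 18.3 and 15.3 RPKM against 25.5 and 19.3 RPKM (-0.39 ± 0.15, adjusted p = 0.142). Zic5 had 3.86 and 3.08 RPKM against 4.88 and 4.09 RPKM (-0.30 ± 0.12, adjusted p = 0.149). The ZIC pair thus had differences of like size, with narrow space between the groups. Otx2 had 11.8 and 10.8 RPKM against 15.1 and 12.8 RPKM (-0.28 ± 0.10, adjusted p = 0.104). Lin28b had 12.7 and 13.3 RPKM against 13.8 and 13.9 RPKM (-0.09, adjusted p = 0.371). The other 3 genes overlapped their controls: Pim2 with 74.9 and 65.8 RPKM (-0.13, adjusted p = 0.338), Pou3f1 with 22.9 and 19.7 RPKM (0.15, adjusted p = 0.441) and Fgf5 with 4.91 and 4.47 RPKM (-0.04, adjusted p = 0.804). The median of the 8 was -0.21, beside 0.01 for all tested genes.

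Of the 20 other formative and primed genes, 7 fell and 2 rose after Cbx3 siRNA in NPCs. Among those with the largest changes, Dnmt3b, the de novo DNA methyltransferase of the epiblast, fell from 346 and 350 RPKM to 200 and 210 RPKM (-0.76, adjusted p = 0.00162). Its partner Dnmt3a fell by 0.69 (adjusted p = 0.00319) and Sall2 fell by 0.77 (adjusted p = 0.0141). These are larger fitted differences than those of the 8. Of the 17 naive genes, Stat3 rose (0.85, adjusted p = 0.00403) and none fell, and 3 of 8 general pluripotency genes fell and none rose. Of the 6 tested neural progenitor markers, 5 fell.

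Wnt genes, the system that Sfrp2 acts on, rose in 4 of 14 tested cases and fell in none. Of the 14 differences 8 were positive, with a median of 0.07, beside 0.01 for all tested genes. Among those without a call, Lef1 was at -0.82 (adjusted p = 0.0770) and Axin2 at 0.17 (adjusted p = 0.265). The part of Sfrp2 in these levels was not tested. Sp5, a direct Wnt target, rose from 1.38 and 1.28 to 3.45 and 3.78 RPKM (0.99, adjusted p = 0.00226), Wnt7b rose by 0.83 (adjusted p = 0.00226) and Wnt8a rose from 3.41 and 3.57 to 5.14 and 6.74 RPKM (0.62, adjusted p = 0.0455). All 4 tested epithelial and trophoblast markers rose in the same comparison, with a list sum of 517 and 561 RPKM against 211 and 225 RPKM in NPC controls. Of 10 tested feeder markers 4 rose and 1 fell (list sums 17.98 and 17.4 RPKM against 14.2 and 12.3 RPKM). The part of these cell types in the levels of the 8 genes was not tested.

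The response of the 8 genes to Cbx3 siRNA was not shown to differ between NPCs and ESCs. For the difference between the 2 responses, none of the 8 and none of all tested genes passed in limma (0%), with 0 of the 8 and 233 of all genes at an unadjusted p under 0.05. For Sfrp2 the difference was -0.48 ± 0.23 (adjusted p = 0.9999), and for Pim2 it was 0.04 ± 0.96. The standard error for Pim2 shows how little the ESC libraries limit it.

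Med26 siRNA in NPCs moved 3 of the 8 genes and in both directions. Fgf5 and Lin28b rose, beside 6.90% of all tested genes that rose, and Pim2 fell, beside 6.46% that fell. The median of the 8 was 0.06, beside -0.00 for all tested genes. The control libraries are those used for Cbx3 siRNA, so the 2 comparisons share their error.

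Pim2 fell from 81.5 and 73.0 RPKM in NPC controls to 47.5 and 45.6 RPKM after Med26 siRNA. Group means were 77.3 ± 6.03 and 46.6 ± 1.34 RPKM (SD, n = 2), a ratio of 0.603. The groups lie far apart, and the difference was -0.72 ± 0.08 (SE; adjusted p = 0.00656). Without Med26 siRNA replicate 1 the adjusted p was 0.0502 and none of the 8 passed, and in the fit of all 10 libraries it was 0.812.

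Fgf5 rose from 5.12 and 4.62 RPKM to 7.94 and 6.93 RPKM after Med26 siRNA, with means of 4.87 ± 0.348 and 7.44 ± 0.718 RPKM (SD, n = 2). Both knockdown libraries lay above both controls, and the difference was 0.52 ± 0.10 (SE; adjusted p = 0.0216). It missed the threshold without NPC control replicate 1 or 2 (adjusted p = 0.0758 and 0.103), without Med26 siRNA replicate 1 or 2 (0.126 and 0.0585), with no filter (0.0742) and with all 10 libraries in 1 fit (0.375).

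Lin28b rose from 13.8 and 13.9 RPKM to 16.6 and 16.4 RPKM (0.24 ± 0.06, adjusted p = 0.0452). The replicates of both groups were close together, and Lin28b was the gene of the 8 with the smallest replicate gap in each NPC group. The call was the least firm of the 3: leaving out any 1 of the 6 NPC libraries gave an adjusted p between 0.0727 and 0.204, no filter gave 0.0501, summed rows 0.0575, no intensity trend 0.054 and all 10 libraries 0.486.

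The other 5 genes did not pass. Otx2 had 17.5 and 15.98 RPKM after Med26 siRNA, above both controls (0.25 ± 0.10, adjusted p = 0.135). Sfrp2 had 12.4 and 10.2 RPKM, below both controls (-0.31 ± 0.11, adjusted p = 0.107). Pou3f1 had 22.2 and 18.4 RPKM, Zic2 24.7 and 21.2 RPKM and Zic5 4.46 and 4.74 RPKM, all overlapping their controls, with differences of 0.08, 0.04 and 0.03. Set beside the Cbx3 siRNA values above, Sfrp2 was below the controls in both knockdowns, whereas Otx2 was below them after Cbx3 siRNA and above them after Med26 siRNA. For Med26 siRNA, the share of all tested genes without overlap was not counted.

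The FGF family and its feedback genes changed in both directions after Med26 siRNA. Fgf4 rose from 45.6 and 48.5 to 65.0 and 64.1 RPKM after Med26 siRNA (0.45, adjusted p = 0.00806) and Fgf17, an FGF8-type ligand, rose from 4.84 and 4.63 to 10.1 and 8.83 RPKM (0.87, adjusted p = 0.00469). Fgf8 fell from 5.27 and 4.00 to 1.14 and 1.04 RPKM (-1.42, adjusted p = 0.00756). Fgf15 had 10.5 and 11.3 RPKM, overlapping the 10.8 and 11.1 RPKM of its controls. Of 12 tested FGF receptor and ERK feedback genes, 2 rose and 1 fell, beside 6.90% of all tested genes that rose and 6.46% that fell. Spred1 (0.67, adjusted p = 0.00253) and the ERK phosphatase gene Dusp6 (0.44, adjusted p = 0.00609) rose, and the ETS factor gene Etv4 fell by 0.62 (adjusted p = 0.00551).

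Genes around Lin28b included 4 that rose and 1 that fell among 13 of the Lin28 and let-7 list. Hmga2, a chromatin protein and let-7 target, rose from 1.54 and 1.12 to 2.36 and 2.19 RPKM (0.50, adjusted p = 0.0322), and Igf2bp3, an RNA-binding protein gene, rose by 0.34 (adjusted p = 0.0137). Trim71, itself a let-7 target, fell from 56.7 and 47.9 to 36.6 and 32.8 RPKM (-0.58, adjusted p = 0.0179). Lin28a stayed without a call (-0.07, adjusted p = 0.381). Targets on this list therefore moved in both directions.

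Among 20 other formative and primed genes, 1 rose (Hmga2) and 4 fell after Med26 siRNA, Wnt8a the most, from 3.41 and 3.57 to 1.25 and 0.785 RPKM (-1.16, adjusted p = 0.00843). Of the 17 naive genes, 7 rose and none fell, with a median of 0.36. Nr0b1 rose from 1.29 and 1.60 to 3.61 and 3.21 RPKM (0.85, adjusted p = 0.00543), Stat3 by 0.65 (adjusted p = 0.00953) and Esrrb by 0.61 (adjusted p = 0.0133). All 3 were below their ESC control levels, which for Nr0b1 were 50.03 and 20.01 RPKM. Epithelial and trophoblast markers rose here too (4 of 4 tested, list sums 371 and 386 RPKM), and of 10 tested feeder markers none rose or fell. The part of epithelial cells in the levels of the 8 genes was not tested.

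**Figure D4:**
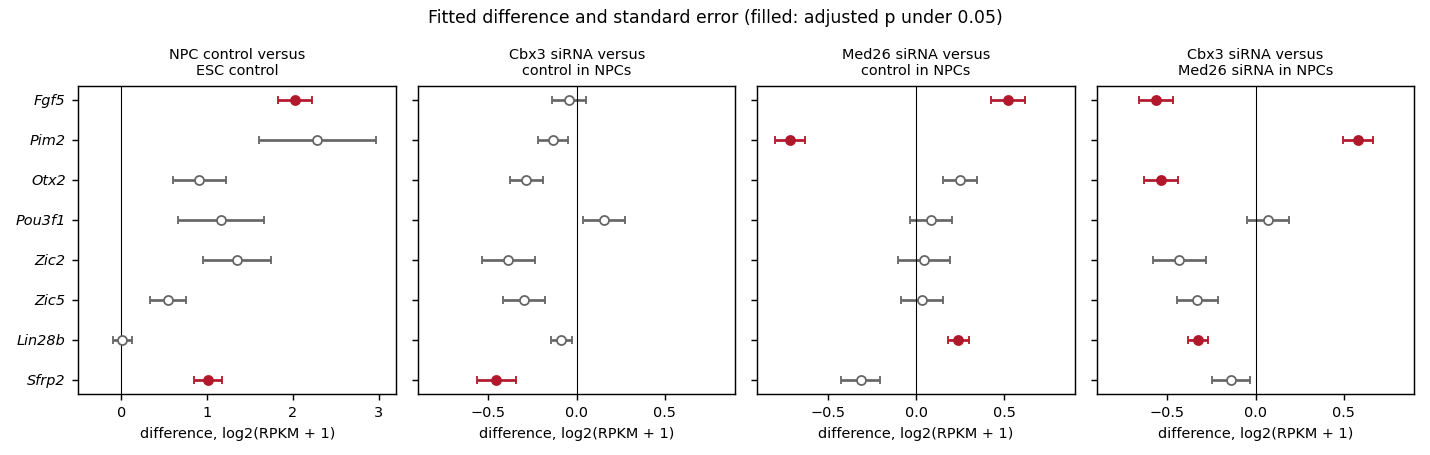
Fitted difference on the log2(RPKM + 1) scale (horizontal axes, the first panel on a wider range than the other 3) with its standard error, for each of the 8 genes (rows) in 4 comparisons, filled where the adjusted p is under 0.05. Pim2 is at -0.72 and Fgf5 at 0.52 after Med26 siRNA, and the first panel shows the wide error of Pim2 (0.68) against ESC controls.

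Cbx3 siRNA compared with Med26 siRNA in NPCs, with no control library involved in the difference, set 4 of the 8 genes apart. Otx2, Fgf5 and Lin28b were lower after Cbx3 siRNA, beside 7.87% of all tested genes that were lower, and Pim2 was higher, beside 10.4% that were higher. Otx2 had 11.8 and 10.8 RPKM after Cbx3 siRNA and 17.5 and 15.98 RPKM after Med26 siRNA (-0.53 ± 0.10, adjusted p = 0.0151, and 0.0631 with no filter on low values). Otx2 passed neither comparison with the controls, which lie between the 2 knockdowns. Fgf5 differed by -0.57 (adjusted p = 0.0124), Lin28b by -0.33 (adjusted p = 0.0149) and Pim2 by 0.58 (adjusted p = 0.00796), and in each the groups did not overlap.

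Zic2 and Zic5 were also lower in both Cbx3 siRNA libraries than in both Med26 siRNA libraries, without passing (-0.43 and -0.33, adjusted p = 0.0961 and 0.104). The share of all tested genes whose groups do not overlap was not counted between the knockdowns, so the separate ranges have no background. Sfrp2 and Pou3f1 overlapped (-0.14 and 0.07, adjusted p = 0.412 and 0.721). Without Cbx3 siRNA replicate 2 or without Med26 siRNA replicate 1, Pim2 was the 1 gene of the 8 still past the threshold: the adjusted p became 0.0688 and 0.0800 for Fgf5, 0.0776 and 0.0931 for Otx2, and 0.0586 and 0.0924 for Lin28b. Lin28b also missed it without Cbx3 siRNA replicate 1 (0.0785) and without Med26 siRNA replicate 2 (0.0721). With all 10 libraries in 1 fit none of the 8 passed, where the ESC spread enters the error, with adjusted p of 0.828 for Pim2, 0.256 for Fgf5, 0.520 for Otx2 and 0.243 for Lin28b.

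Across the 5 groups, the order of mean levels differed among the 8 genes. Fgf5, Otx2, Zic2, Zic5 and Lin28b were highest after Med26 siRNA in NPCs, Pim2 and Sfrp2 in NPC controls, and Pou3f1 after Cbx3 siRNA in NPCs. For Zic2 and Zic5 the top group overlapped the next (NPC controls), and for Pim2 and Pou3f1 the top group overlapped the second as well. Lin28b was lowest after Cbx3 siRNA in ESCs, with ESC controls, NPC controls and NPC Cbx3 siRNA within 12.7 to 14.3 RPKM.

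Over the 10 libraries, the levels of the 8 genes went together to different degrees. As a description only, since the points share cell type, replicate and depth, Pearson's r of log2(RPKM + 1) was 0.968 for Pim2 with Pou3f1, 0.966 for Otx2 with Zic2 and 0.950 for Zic2 with Zic5 (n = 10 libraries). Lin28b had the lowest values, 0.536 with Sfrp2 and 0.537 with Pim2. The tested genes closest to each were sought among those whose log2 range over the libraries was at least 1. For Fgf5 they were Ppt2 and Cdh24 (r = 0.992 and 0.992), for Pim2 Ptgis and Cnn2 (0.991 and 0.989), for Otx2 Fndc3c1 and Pphln1 (0.992 and 0.989) and for Pou3f1 Ptpn9 and Vcl (0.994 and 0.991). For Zic2 they were Pnpla6 and Epb41l3 (0.988 and 0.979), for Zic5 Zcchc12 (0.975), for Lin28b Zswim6 and Tnrc6a (0.945 and 0.925) and for Sfrp2 Cnih2 and Tafa5 (0.979 and 0.971).

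Zic2 and Zic5 are neighbours on chromosome 14, with 2610035F20Rik, a long noncoding RNA gene chosen here after its values were seen, between them in the RefSeq gene order. It had 0.442 and 1.48 RPKM in ESC controls and 4.13 and 2.69 RPKM in NPC controls. The difference between these groups was 1.20 ± 0.30 (adjusted p = 0.0360). After Cbx3 siRNA in NPCs it had 2.40 and 1.54 RPKM, below both controls (-0.57 ± 0.21, adjusted p = 0.136), and after Med26 siRNA 3.51 and 2.55 RPKM (-0.12). Its replicate 1 was above replicate 2 in every NPC group and below it in both ESC groups, as for Zic2. No gene of the table overlaps any of the 8 in that annotation, and the use of strand in counting is not stated in the labels. Otx2os1, the antisense neighbour of Otx2, was at most 0.206 RPKM in any library.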

How the data were processed

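The authors deposited 1 table of RPKM values per RefSeq transcript accession for the 10 libraries (35860 rows), and no counts were used. The submitters' processing notes name TopHat2 2.08 and the build mm9. The counting tool and the use of strand are not stated in the labels. Symbols for the accessions came from RefSeq's GRCm38.p6 gene table (99.07% of rows matched), used for names and gene order only. From the steps between low values, depth could be estimated, but only 64.2% to 70.0% of these values lay within 0.1 of whole reads, so reads were not recovered.

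Genes that reached 1 RPKM in 2 or more libraries were fitted on the log2(RPKM + 1) scale (limma 3.58.1, R 4.3.3), with an intensity trend, two-sided tests and Benjamini-Hochberg adjustment over all 11956 genes at 0.05. Comparisons within NPCs used the 6 NPC libraries (3 residual degrees of freedom), the others all 10 (5). The script was tested on simulated data. Alternatives were pseudocount, filter, summed rows, quantile scaling, no trend, replicate block, other sets of libraries and leaving out each library. All 8 genes are named in every comparison; of each other list at most 3 called genes by size, paralogs, and the 2 most correlated genes per member. Some genes that this rule names are not reported here. The 8 genes and the lists were chosen with earlier results of these data known.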

Additional observations from a re-analysis of the deposited data

How the results depend on the processing

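Of 448 values of the 8 genes under alternatives other than leaving out 1 library, 408 kept direction and side of the threshold, 17 lost the call, 22 gained it and 1 reversed. With quantile scaling, both smaller pseudocounts and the stricter filter, no count of called genes among the 8 moved by over 1.5 times. With no filter the count went from 1 to 0 (Cbx3 siRNA, NPCs) and from 3 to 1 (Med26 siRNA), and Otx2 lost its call between the knockdowns (adjusted p = 0.0631), with summed rows from 1 to 0 (Cbx3 siRNA, NPCs), and with all 10 libraries in 1 fit to 0 in the 3 NPC comparisons. For NPC against ESC controls, the 4 control libraries alone gave 0. With both ESC replicates 1 left out, Lin28b was at -0.049, reversed. Calls are not given where both ESC libraries of a replicate were left out, since each ESC group kept 1 library. Over all genes, the 1918 calls of NPC against ESC controls became 47 with the 4 controls. The 1570, 1597 and 2185 calls of the NPC comparisons (Cbx3 siRNA, Med26 siRNA, between them) became 876, 611 and 1325 with no filter and 1, 15 and 120 with all 10 libraries. Without 1 library they were 391 to 1063, 164 to 1148 and 560 to 1672. The 0 calls for Cbx3 siRNA in ESCs and for the difference of responses became 2 and 4 with no filter.

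The replicate number was not used to pair samples: the labels tie it to no shared source, and each comparison has 2 pairs. Replicate differences over all tested genes correlated at 0.89 between the ESC groups and 0.42 to 0.46 between NPC groups, and at -0.07 to -0.04 between ESC and NPC groups. With the replicate number within cell type as a replicate block, 7 of the 8 genes passed for NPC against ESC controls, 2 for Cbx3 siRNA in ESCs (Pou3f1 and Lin28b, adjusted p = 0.0382 and 0.0399) and 4 for Cbx3 siRNA in NPCs (Otx2, Pou3f1 and Zic2 with Sfrp2). Otx2 after Med26 siRNA (adjusted p = 0.0158), and Zic2 and Zic5 between the knockdowns (0.00348 and 0.0424), also passed. Over all genes the block gave 6912 calls (NPC against ESC controls), 813 (Cbx3 siRNA, ESCs), 3495, 3705 and 4234 (NPC comparisons) and 6 (difference of responses), and 55 for Cbx3 siRNA in the 4 ESC libraries alone, where none of the 8 passed (0). For NPC against ESC controls this block takes the ESC replicate spread out of the error without matching ESC to NPC samples, so the rise to 7 and 6912 follows from how the fit is built and is no test of that comparison. For Cbx3 siRNA in ESCs, the block fit over all 10 libraries shares its error with the NPC libraries, whose replicates lay closer together.

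Leaving out each library gave 1 to 7 called of the 8 for NPC against ESC controls, 0 to 1 for Cbx3 siRNA in NPCs, 0 to 2 for Med26 siRNA and 1 to 4 between the knockdowns. It reversed 38 of 384 values, none of them past the threshold with every library in. For NPC against ESC controls Lin28b ranged from -0.049 to 0.073. For Cbx3 siRNA in ESCs the ranges were -0.43 to 0.21 (Fgf5), -1.21 to 0.85 (Pim2), -0.65 to 0.15 (Otx2), -0.96 to 0.42 (Pou3f1), -0.50 to 0.74 (Zic2), -0.51 to 0.15 (Zic5) and -0.19 to 0.25 (Sfrp2). For the difference of the Cbx3 siRNA responses they were -0.25 to 0.39 (Fgf5), -0.99 to 1.07 (Pim2), -0.43 to 0.37 (Otx2), -0.27 to 1.11 (Pou3f1), -1.13 to 0.11 (Zic2) and -0.45 to 0.21 (Zic5). In NPCs they were -0.10 to 0.017 (Fgf5, Cbx3 siRNA), -0.048 to 0.21 (Pou3f1), -0.15 to 0.24 (Zic2) and -0.072 to 0.14 (Zic5) for Med26 siRNA, and -0.059 to 0.20 (Pou3f1) between the knockdowns. The cause of these changes was not tested. A lone library left in a group was assumed to vary like the other groups, and Fgf5 in ESCs rests on few reads.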
